A study of Pimephales promelas and Coturnix japonica and Xenopus laevis with 724 samples.

Results

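The 40 identifiers described here were selected on their HIGH and control levels in 3 fish experiments with ethinylestradiol, a synthetic oestrogen used in contraceptive pills. The experiments were on liver of adult fathead minnows, on fathead minnow embryos and on rainbow trout embryos. Each library was scaled to CPM, its counts divided by their total and multiplied by 1e6, and the ratio of the HIGH mean to the control mean was taken on the log2 scale after 1 CPM was added to both. Of 42403 identifiers in the series, 18647 were listed in all 3 tables, and 11777 of these had a HIGH mean of at least 1 CPM in each and were ranked by the second largest of their 3 ratios. The first 40 were kept. Because those libraries chose the members, every value of HIGH or of a lower level against the same controls is given as a description, with no test.

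The adult minnow liver table held 4 HIGH, 4 MED, 5 LOW and 5 control libraries. The minnow embryo table held 5 HIGH, 5 MED and 5 control libraries, and also a numbered series with 2 libraries at level 10, 5 at level 4 and 3 at level 1. The trout embryo table held 3 HIGH, 3 MED and 3 control libraries. Outside fish, ethinylestradiol tables covered liver of early-life Japanese quail (5 HIGH, 5 MED, 5 control), liver of adult quail (5 HIGH, 5 MED, 6 control), embryos of the northern leopard frog and the African clawed frog (5 HIGH, 5 MED and 5 control each), and liver of early-life double-crested cormorants (5 HIGH and 5 MED, with no labelled control). Trenbolone tables covered adult minnow liver, minnow embryos, early-life quail liver and clawed frog embryos (5 HIGH, 5 MED and 5 control each) and adult quail liver (5 HIGH and 5 MED, with no labelled control). Control libraries of these tables are labelled dmso, a solvent, and the agents are labelled ee2 and tb, read here as ethinylestradiol and trenbolone. Further fish tables covered the agents labelled bap, flx, seme, cpf, hbcd and pb, read as benzo[a]pyrene, fluoxetine, selenomethionine, chlorpyrifos, hexabromocyclododecane and lead. In minnows their HIGH and control groups held 5 libraries each, or 4 each for embryos with selenomethionine. Trout embryo groups were 4 at level 81 and 7 controls (benzo[a]pyrene), 3 and 3 (fluoxetine), and 4 HIGH and 5 controls (selenomethionine). The labels give neither the unit of a level nor the sex of an animal, and they do not say whether a library is 1 animal or a pool, so the p-values below measure the spread between these libraries. In bulk tissue, more cells of a type and more RNA per cell cannot be told apart.

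Oestrogens act through oestrogen receptors, nuclear receptors that bind DNA and change the transcription of their target genes. In egg-laying vertebrates the liver of a maturing female answers oestrogen by making vitellogenin, the precursor of egg yolk, and, in many fishes, the proteins of the egg envelope. Males and embryos normally make little of either, and their appearance after exposure to ethinylestradiol is a widely used sign of oestrogen action in fish. Trenbolone is a synthetic androgen and acts through the androgen receptor. None of these genes could be located in the tables. The identifiers are codes of the form s2f_ followed by digits, 0 of 42403 matched a reference table of 64593 genes, and so no member is given a gene name, a role or a sequence. For the same reason the labelled tissues could not be checked against marker genes, and no list of other oestrogen targets could be counted.

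The list was drawn up under the name of identifiers raised by oestrogen and shared by fish. Ratios above 0 in all 3 tables were not confined to its first 5 members. For example, s2f_0000833006, of rank 8, had log2 ratios of 1.61 in adult liver, 1.07 in minnow embryos and 0.25 in trout embryos. A log2 ratio of at least 1 in all 3 tables, a cutoff that is not in the rule, was reached by the first 5 members only. These are 0.0425% of the ranked identifiers. A further 5 members reached that ratio in 2 tables, so 10 did so in 2 or more, which is 0.0849% of the ranked identifiers. Both shares count these same members, since the ranking used these ratios, and nothing is read from the shares. In 1 table only it was reached by 23 members, and in no table by 7. The second largest ratio was at least 2 in 5 members and below 1 in 30. At the end of the list, s2f_0004755001 and s2f_0004745002 held second largest ratios of 0.45 and 0.45, and the next identifiers outside it, s2f_0005221006 and s2f_0000359016, held 0.44 and 0.44. The 35 members of rank 6 to 40 are therefore referred to by rank.

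One adult minnow library stood apart. HIGH library D had a median correlation of 0.556 with the other HIGH libraries over the ranked identifiers, against 0.910 or more for every other adult library with its own group. It held 15077 identifiers at 1 CPM or more, against 9582 to 11477 in the other 3 HIGH libraries, and over 90% of the summed HIGH level lay in it for 1569 of the ranked identifiers (13.3%). For 12 members over 90% of the summed adult HIGH level came from library D, and for 20 members over 50% did. With library D left out, 20 of the 40 members stayed in the list, 15 members fell short of a HIGH mean of 1 CPM, and the median adult log2 ratio of the 40 was 0.066, against 1.51 with it. The first 5 members held ranks 1 to 5 with and without library D. Total counts in the 3 fish tables ran from 4066220 to 30078220 per library.

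**Figure D1:**
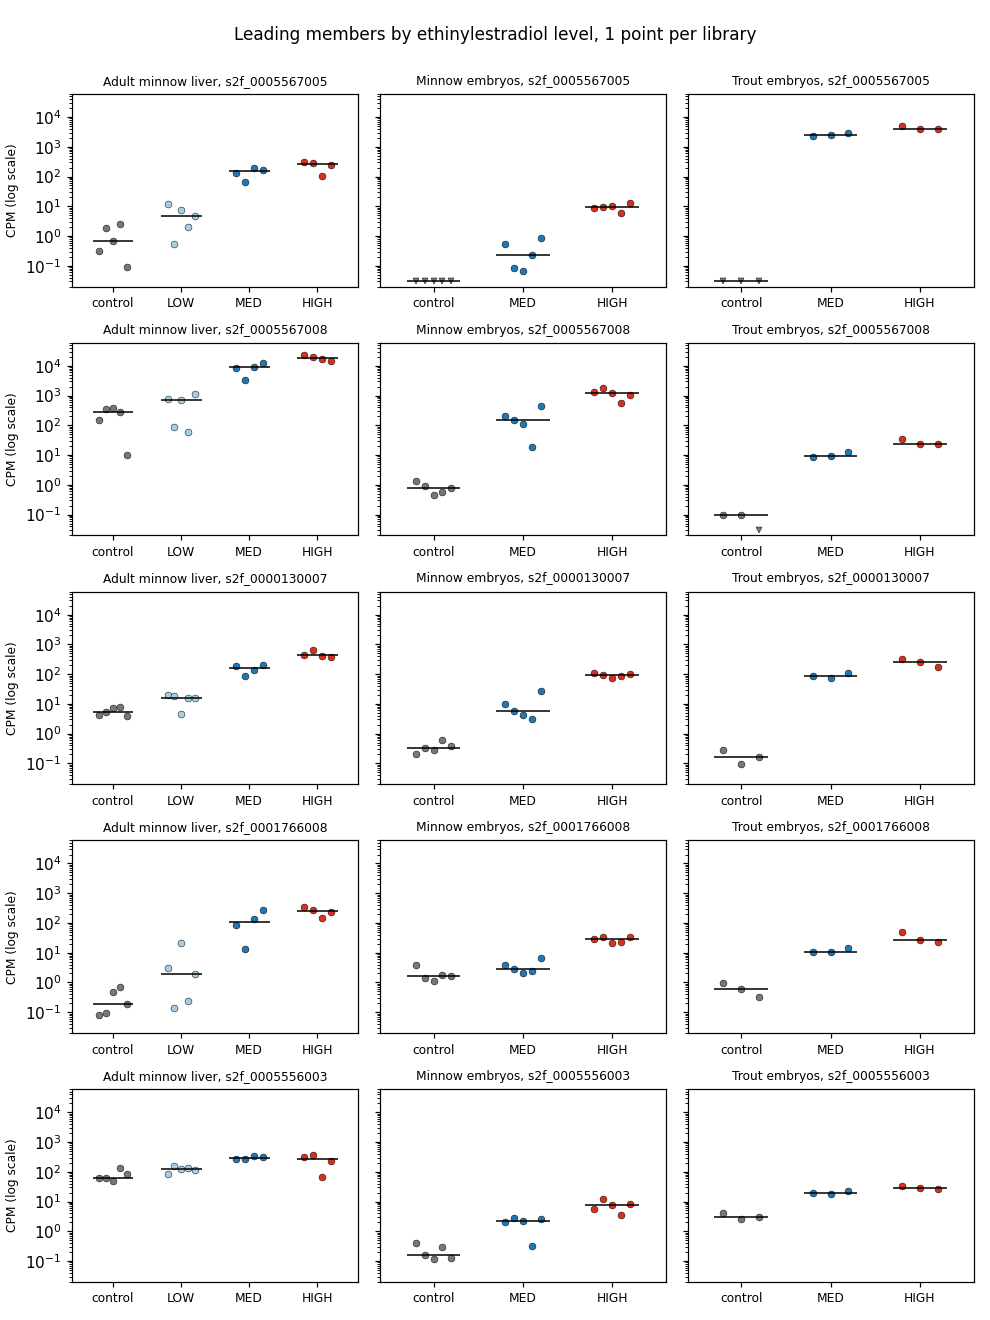
CPM of the 5 leading members by level in the 3 fish ethinylestradiol tables, on a log scale; each point is a library, each horizontal line a group median, and triangles at the foot mark libraries with no count. For the first 4 members every HIGH library lies above every control library in each table, and s2f_0005556003 overlaps only in adult liver, where a HIGH library lies at 66.0 CPM.

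Within the 3 fish ethinylestradiol tables the member ranked first, s2f_0005567005, was near absent from controls and reached its highest level in trout. In adult minnow liver it was at 317, 293, 107 and 236 CPM in the HIGH libraries B to E, against 0.320, 1.79, 0.699, 2.53 and 0.0931 CPM in the control libraries A to E. The HIGH mean was 219.4 times the control mean, a log2 ratio of 6.84. In minnow embryos it was at 8.48, 9.54, 10.1, 6.08 and 13.0 CPM in the HIGH libraries, against 0 counts in every control library. The limit that 0 counts over the control group allow (3 counts) was 0.0421 CPM, so that HIGH was at least 225-fold higher. In trout embryos it was at 4977, 3873 and 4015 CPM in the HIGH libraries, again with 0 counts in every control library. There the limit was 0.0910 CPM and HIGH was at least 47135-fold higher. HIGH and control libraries did not overlap in any of the 3 tables. Such limits cover counting error only.

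The second member, s2f_0005567008, had the highest level of the 40 in adult liver, and its identifier differs from that of the first member only in the last digit. It was at 23001, 20551, 17045 and 14392 CPM in the adult HIGH libraries, against 147, 347, 389, 276 and 9.86 CPM in the controls, with a HIGH mean 80.2 times the control mean. In minnow embryos it was at 1285, 1752, 1240, 568 and 1079 CPM in the HIGH libraries, against 1.36, 0.893, 0.462, 0.552 and 0.759 CPM in the controls, and the HIGH mean was 1473 times the control mean. Trout embryos held less of it, with 35.5, 24.0 and 24.4 CPM in the HIGH libraries, against 0.0975, 0.0990 and 0 CPM in the controls. Those trout controls held 2 counts in all, too few for a fold. The first 2 members thus stood in opposite order in the 2 fish species: in trout HIGH libraries s2f_0005567005 was the higher one, and in minnow HIGH libraries, adult and embryo, s2f_0005567008 was. CPM is not scaled by length, so this order is of counts and not of molecules.

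The third member, s2f_0000130007, had log2 ratios of 6.12 in adult minnows, 6.11 in minnow embryos and 7.74 in trout embryos. Adult HIGH libraries were at 436, 635, 419 and 382 CPM, against 4.24, 5.38, 7.55, 7.59 and 4.0 CPM in the controls. Minnow embryo HIGH libraries were at 113, 90.3, 76.1, 84.8 and 102 CPM, against 0.209, 0.325, 0.289, 0.614 and 0.379 CPM in the controls. Trout HIGH libraries were at 321, 257 and 177 CPM, against 0.292, 0.0990 and 0.159 CPM in the controls. Every HIGH library of s2f_0000130007 lay above every control library in all 3 tables.

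The fourth member, s2f_0001766008, had the largest adult fold of means among the 5. Its adult HIGH libraries were at 336, 283, 145 and 234 CPM, against 0.0800, 0.0944, 0.490, 0.723 and 0.186 CPM in the controls, a HIGH mean 793 times the control mean. In embryos it differed less. Minnow embryo HIGH libraries were at 29.9, 33.1, 21.9, 22.9 and 34.1 CPM, against 3.76, 1.46, 1.15, 1.78 and 1.71 CPM in the controls (14.4 times the control mean). Trout HIGH libraries were at 48.0, 27.6 and 22.7 CPM, against 0.975, 0.594 and 0.317 CPM in the controls (52.1 times). No HIGH library of this member overlapped a control library.

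The fifth member, s2f_0005556003, was the only one of the 5 with overlapping groups, and only in adult liver. It was at 326, 377, 66.0 and 226 CPM in the adult HIGH libraries, against 59.5, 62.8, 50.3, 131 and 81.3 CPM in the controls, and the low HIGH value is that of library D. The adult HIGH mean was 3.24 times the control mean. In minnow embryos it was at 5.65, 12.3, 7.43, 3.40 and 8.09 CPM in the HIGH libraries, against 0.417, 0.162, 0.115, 0.307 and 0.127 CPM in the controls (32.7 times). Trout HIGH libraries were at 34.2, 28.9 and 27.4 CPM, against 4.19, 2.57 and 3.09 CPM in the controls (9.18 times). In both embryo tables the groups did not overlap.

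**Figure D2:**
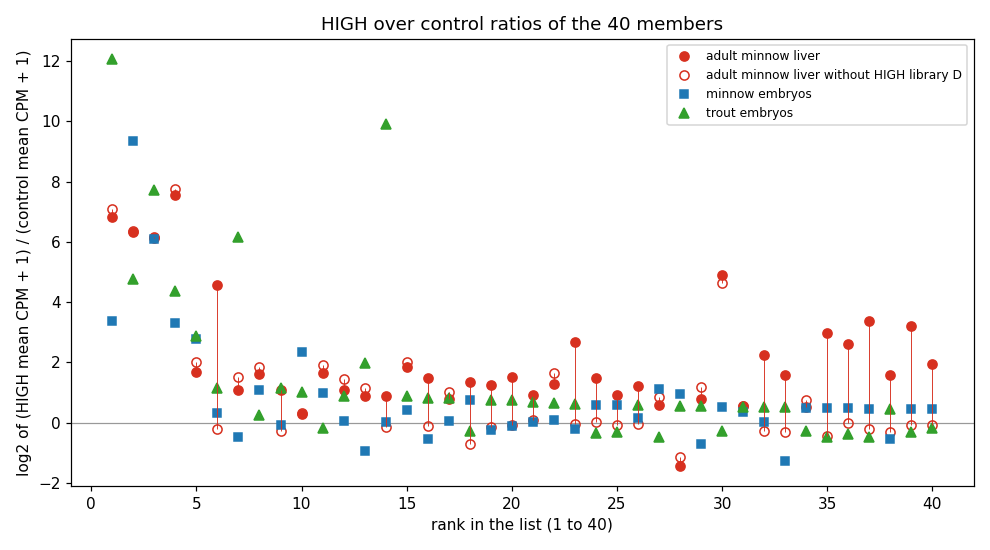
Log2 ratio of the HIGH mean to the control mean, with 1 CPM added to both, for the 40 members by rank; filled circles are adult minnow liver, open circles the same without HIGH library D, squares minnow embryos and triangles trout embryos. The first 5 members lie above 1 in all 3 tables, and the later members mostly lie above 1 in adult liver alone, where the median of the 40 was 1.51 with library D and 0.066 without it.

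Of the members of rank 6 to 40, 24 had a log2 ratio of at least 1 in adult minnow liver, 3 in minnow embryos and 6 in trout embryos. Over all 40, the log2 ratio was at least 1 in 29 members in adult liver, 8 in minnow embryos and 11 in trout embryos. The medians were 1.51, 0.43 and 0.60, beside −0.11, −0.08 and −0.24 over all ranked identifiers. All 3 ratios were above 0 in 17 members and only 2 were in the other 23. Without adult HIGH library D, 15 members instead of 29 reached a ratio of 1 in adult liver. The member ranked sixth, s2f_0000268011, is an example. It was at 0.0539, 0, 113 and 0.181 CPM in adult HIGH libraries B to E, against 0.0800, 0.283, 0.0699, 0.241 and 0.558 CPM in the controls. Library D held 99.8% of its summed HIGH level, and its adult ratio of 4.56 became −0.21 without that library. At adult LOW and MED it was at 0.387 CPM or less in every library. In minnow embryos s2f_0000268011 was at 12.1, 9.21, 19.5, 11.6 and 6.85 CPM in the HIGH libraries, against 12.7, 12.7, 5.94, 7.24 and 7.71 CPM in the controls. In trout embryos it was at 4.47, 0.505 and 1.92 CPM in the HIGH libraries, against 0.975, 0.0990 and 0.396 CPM in the controls. HIGH and control libraries overlapped in all 3 tables. Likewise 100% of the summed adult HIGH level of s2f_0000734004, s2f_0000291017, s2f_0000246011, s2f_0003596005 and s2f_0000604010 lay in library D.

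Another adult library carried 2 members. This was HIGH library E, with 94.3% of the summed level of s2f_0000001141 and 92.0% of that of s2f_0000001011. Below that cut, library E held 87.7% for s2f_0000441002, 84.3% for s2f_0000398005 and 68.8% for s2f_0002969001. The share of ranked identifiers that lay mostly in library E is not given. At rank 7, s2f_0000001141 was at 9.48, 109, 5.37 and 2035 CPM in adult HIGH libraries B to E, against 381, 51.8, 162, 446 and 225 CPM in the controls, so that 2 HIGH libraries lay below every control. In trout embryos the same identifier did separate, with 87.2, 52.8 and 128 CPM in the HIGH libraries, against 0.0975, 0.297 and 0.396 CPM in the controls.

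Some later members had a strong ratio in 1 fish table alone. The member of rank 14, s2f_0002041008, was at 1770, 1352 and 1411 CPM in trout HIGH libraries, against 0.292, 0.495 and 0.872 CPM in the controls, a log2 ratio of 9.93. Its ratio was 0.01 in minnow embryos and 0.89 in adult liver, where 87.2% of the HIGH level came from library D. The member of rank 30, s2f_0003515002, was at 38.7, 42.8, 56.6 and 15.9 CPM in the adult HIGH libraries, against 0.560, 0.0944, 0.490, 0.241 and 0.279 CPM in the controls. Its adult ratio was 4.89 with library D and 4.65 without it, and its trout ratio was −0.28.

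Every HIGH library lay above every control library for 8 members in adult liver (0.153% of ranked identifiers), for 7 in minnow embryos (0.212%) and for 22 in trout embryos (1.83%). These counts repeat what chose the members, and nothing is read from them. In adult liver the 8 were the first 4 members, s2f_0000833006, s2f_0000280011, s2f_0003515002 and s2f_0005981003. In minnow embryos the 7 were the first 5, s2f_0005249002 and s2f_0005041002.

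At the lower levels, which members separated from the controls differed between the tables. Every MED library lay above every control library for 7 members in adult liver (0.178% of ranked identifiers), for 3 in minnow embryos (0.0764%) and for 14 in trout embryos (1.11%), and no member did so at adult LOW (0.119%). The adult 7 were the first 5 members, s2f_0003515002 and s2f_0003138004, and the minnow embryo 3 were the first 3 members. Over the 40 members the median log2 ratio was 0.11 at adult LOW and 0.06 at adult MED, beside −0.02 and −0.33 over all ranked identifiers. It was 0.03 at MED in minnow embryos and 0.14 at MED in trout embryos, beside −0.04 and −0.20. These comparisons share their controls with the HIGH ratios that chose the members. The mean went up at each step, from control to HIGH, in 13 members in adult liver (2.07% of ranked identifiers), 18 in minnow embryos (8.37%) and 22 in trout embryos (2.92%), and among the first 5 in 4, 5 and 5. These step counts include the HIGH and control means that chose the members, and nothing is read from them.

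In adult liver the largest step in log2 mean level between neighbouring levels lay between LOW and MED for the first 5 members, while in CPM it lay between MED and HIGH for s2f_0005567008, s2f_0000130007 and, by little, s2f_0001766008. Values of s2f_0005567005 were 11.8, 0.554, 7.29, 1.97 and 4.76 CPM in LOW libraries A to E and 134, 64.5, 190 and 164 CPM in MED libraries B to E. Those of s2f_0000130007 were 19.7, 18.4, 4.60, 15.5 and 16.0 CPM at LOW and 188, 84.7, 140 and 196 CPM at MED. Both members had every MED library above every LOW library, and at LOW both overlapped the controls. The same held for s2f_0005567008 and s2f_0005556003. The second member, s2f_0005567008, was at 754, 84.6, 721, 60.5 and 1168 CPM at LOW and at 8636, 3332, 9327 and 12080 CPM at MED. LOW values of s2f_0001766008 were 2.97, 0.138, 20.7, 0.246 and 1.99 CPM, and its MED values were 82.8, 13.0, 135 and 278 CPM, so that LOW library C lay above MED library C. Library C was the lowest MED library for 5 of the 5 leading members. The fifth member, s2f_0005556003, was at 83.0, 158, 124.8, 136 and 113 CPM at LOW and at 278, 268, 336 and 304 CPM at MED. Its MED mean was above its HIGH mean, but that order rests on HIGH library D. Without library D its HIGH mean was above its MED mean, with log2 ratios to the controls of 1.997 at HIGH and 1.933 at MED.

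MED against LOW in adult liver uses none of the libraries that chose the members, other than through the shared fit. In that fit the HIGH and control libraries enter the filter on low counts, the scaling and the estimate of the spread. They therefore had a part in which members could be tested. Of 13470 identifiers tested with edgeR's quasi-likelihood test, 3 (0.0223%) passed an adjusted p of 0.05, and 2 of the 27 members that passed the filter on low counts were among them. The member s2f_0000130007 rose by 3.69 on the log2 scale (SE 0.54, edgeR adjusted p = 0.0157). The other, s2f_0003515002, was at 12.9, 1.74, 10.8 and 12.9 CPM at MED, against 0.198, 0.415, 0.637, 1.23 and 0.553 CPM at LOW, and rose by 4.58 (SE 0.66, edgeR adjusted p = 0.0157). The remaining leading members did not pass: s2f_0005567005 had a log2 fold change of 5.07 (edgeR adjusted p = 0.0679), s2f_0001766008 of 5.11 (0.377) and s2f_0005567008 of 4.34 (0.476). With only the MED and LOW libraries in the fit neither call held, at log2 fold changes of 3.71 for s2f_0000130007 (edgeR adjusted p = 0.0803) and 4.59 for s2f_0003515002 (0.0886), and with the replicate number as a block both had an edgeR adjusted p of 0.323. Without HIGH library D, which enters through the filter, the scaling and the spread, s2f_0005567005 passed as well (edgeR adjusted p = 0.0168) and 3 members were called. Neither call held when MED library B, D or E or LOW library A, B, D or E was left out (edgeR adjusted p 0.0520 to 0.0672), and without LOW library C only s2f_0000130007 kept its call. DESeq2 called 5 members, namely the first 4 and s2f_0003515002. The number of all identifiers that DESeq2 called is not given, so nothing is read from that count.

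In minnow embryos the numbered levels gave a series apart from the HIGH, MED and control libraries. Means of s2f_0000441010 were 39.3, 36.45 and 41.9 CPM at levels 1, 4 and 10, against 6.46 CPM in the controls. Those of s2f_0000398005 were 152, 167.6 and 153.1 CPM, against 170.6 CPM in the controls. These sets of libraries were not tested against each other. The second member, s2f_0005567008, was at 0.606, 0.550 and 0.494 CPM at level 1, at 1.24, 10.8, 4.13, 0.492 and 11.4 CPM at level 4, and at 255 and 131 CPM at level 10. Both level 10 libraries lay above every level 4 library, while level 4 overlapped level 1. Level 10 against level 1 called 3 of 18043 identifiers (0.0166%), and s2f_0005567008 was the 1 member among them, with a rise of 8.45 on the log2 scale (SE 1.08, edgeR adjusted p = 0.0426). That call rests on 2 and 3 libraries: the adjusted p was 0.108 to 0.588 when any of them was left out, and 0.0781 with the replicate number as a block. The third member, s2f_0000130007, was at 0.202, 0 and 0.110 CPM at level 1 and at 2.83 and 1.99 CPM at level 10, and was not called. At level 10 s2f_0005567005 was at 0.133 and 0.0925 CPM, where levels 1 and 4 had no count of it. At the same level s2f_0001766008, at 1.30 and 1.30 CPM, lay above its level 1 libraries (0.404, 0.786 and 0.329 CPM). Those level 10 values lay within the range of its control libraries in the same table, 1.15 to 3.76 CPM. Level 4 against level 1 called 1 identifier (0.00554%) and none of the 39 members tested, of which 5 had an unadjusted p below 0.05, and DESeq2 called 0. In the MED libraries of the same experiment s2f_0005567008 was at 203, 154, 109, 19.3 and 451 CPM, s2f_0000130007 at 9.95, 5.92, 4.13, 3.11 and 26.9 CPM, and s2f_0005567005 at 0.543, 0.0811, 0.0655, 0.225 and 0.841 CPM. All 3 lay above every control library, while s2f_0001766008, at 3.89, 2.84, 2.1, 2.48 and 6.59 CPM, and s2f_0005556003, at 1.99, 2.84, 2.23, 0.316 and 2.62 CPM, overlapped the controls. MED library E was the highest for 4 of the 5 leading members.

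In trout embryos the leading members were already high at MED. The first, s2f_0005567005, was at 2354, 2424 and 2875 CPM at MED, beside 0 counts in the controls. The third, s2f_0000130007, was at 84.2, 75.8 and 112 CPM at MED, and s2f_0001766008 at 10.8, 10.5 and 14.4 CPM. At the same level s2f_0005567008 was at 8.91, 9.05 and 13.0 CPM and s2f_0005556003 at 20.1, 17.9 and 22.3 CPM, so that in trout every MED library of the 5 lay above every control and below every HIGH library. The trout libraries MED C and HIGH A were the highest of their groups for 5 of the 5 leading members. The 2 trout-high later members parted at MED: s2f_0002041008 was at 498, 432 and 674 CPM there, and s2f_0000001141 at 0.594, 0.658 and 1.22 CPM.

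**Figure D3:**
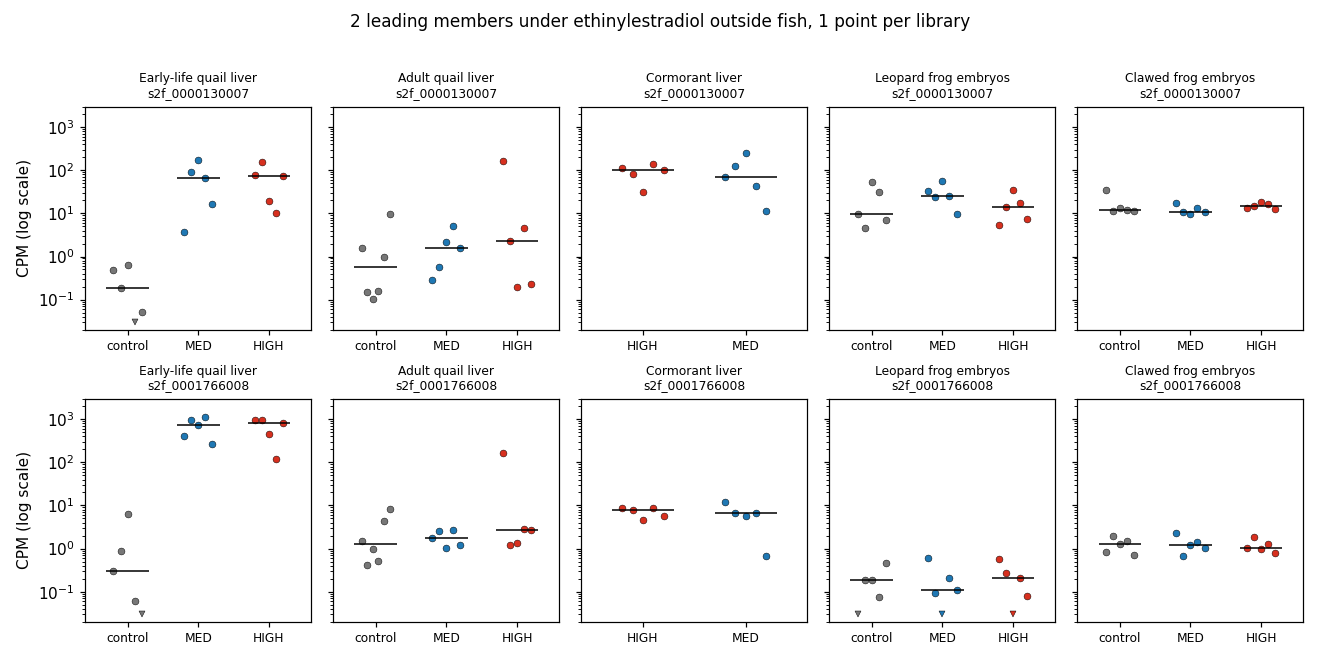
CPM of s2f_0000130007 and s2f_0001766008 by level in the ethinylestradiol tables outside fish, on a log scale, with a point for each library and a line for each group median; triangles at the foot mark libraries with no count. In early-life quail s2f_0000130007 and s2f_0001766008 stand higher in every HIGH and MED library than in every control, and in adult quail a single HIGH library, at 167 and 164.5 CPM, stands above the rest.

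Outside fish, early-life quail liver was the one tissue in which edgeR called leading members with ethinylestradiol. Of 39 members listed there, 21 passed the filter on low counts, and edgeR called 3 of them at HIGH, all upward, where it called 107 upward and 18 downward of 12992 identifiers (0.962%). The fourth member, s2f_0001766008, was at 968, 975, 445, 119 and 824 CPM in the HIGH libraries, against 0.306, 0.884, 6.32, 0.0592 and 0 CPM in the controls, a rise of 8.84 on the log2 scale (SE 1.0, edgeR adjusted p = 0.000181). The third, s2f_0000130007, was at 77.6, 152, 19.3, 10.5 and 75.3 CPM in the HIGH libraries, against 0.481, 0.189, 0.639, 0 and 0.0527 CPM in the controls, a rise of 7.90 (SE 1.23, edgeR adjusted p = 0.00344). Neither member had overlapping groups, and HIGH library 4 was the lowest for both. Both stayed called at HIGH and at MED under every alternative run for these comparisons. The member of rank 15, s2f_0000280011, was at 94.9, 45.3, 33, 24.3 and 29.4 CPM in the HIGH libraries, against 12.6, 14.7, 14.3, 9.42 and 16.5 CPM in the controls, and rose by 1.70 (SE 0.34, edgeR adjusted p = 0.0269). Its adjusted p was 0.0502 to 0.0853 when HIGH library 1 or 2 or control library 1, 2, 3 or 4 was left out.

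At MED in early-life quail edgeR called 160 identifiers (1.23%) and 2 members. The fourth member, s2f_0001766008, was at 410, 972, 730, 1146 and 269 CPM in the MED libraries and rose by 8.82 (edgeR adjusted p = 0.0002). The third, s2f_0000130007, was at 3.73, 92.8, 176, 67.1 and 16.1 CPM and rose by 7.87 (edgeR adjusted p = 0.00313). HIGH and MED libraries overlapped for both members, with a wide spread between libraries within each group. With MED library 1 left out 4 members were called, with s2f_0001208006 and s2f_0000280011 added. The other leading members were at or near 0 in early-life quail: s2f_0005567005 had no count in any HIGH or control library, s2f_0005567008 was at 0.475 CPM or less in the HIGH libraries and 0.569 CPM or less in the controls, and s2f_0005556003 at 0.0442 CPM or less and 0.0632 CPM or less.

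In adult quail liver 27 members were listed and 19 passed the filter. At HIGH edgeR called 7 of 11932 identifiers (0.0587%) and 0 members, with 3 members at an unadjusted p below 0.05 and 0 called by DESeq2. The third member, s2f_0000130007, was at 167, 2.31, 0.199, 4.59 and 0.230 CPM in the HIGH libraries, against 1.57, 0.154, 0.103, 0.159, 0.961 and 9.54 CPM in the controls (log2 fold change 4.16, edgeR adjusted p = 0.332). The fourth, s2f_0001766008, was at 164.5, 1.19, 1.34, 2.91 and 2.76 CPM in the HIGH libraries, against 1.52, 0.424, 0.974, 0.517, 4.30 and 8.31 CPM in the controls (log2 fold change 3.73, edgeR adjusted p = 0.319). HIGH library 1 alone stood above the controls in both, and the other 4 HIGH libraries overlapped them. At MED 0 identifiers (0%) and 0 members were called, by edgeR and for members by DESeq2, with 0 members at an unadjusted p below 0.05.

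The difference between the quail stages was tested as an interaction, adult minus early-life, of the HIGH over control change. It called 59 of 13363 identifiers (0.442%) and 0 of 21 members tested. Of these members 7 had an unadjusted p below 0.05, and DESeq2 called 1, s2f_0000280011. Neither of these counts has the share of all identifiers beside it, and nothing is read from them. The interaction was −5.06 on the log2 scale for s2f_0001766008 (edgeR adjusted p = 0.165) and −3.67 for s2f_0000130007 (edgeR adjusted p = 0.521). Both passed without adult HIGH library 1: the interaction was then −9.09 for s2f_0001766008 (edgeR adjusted p = 0.000392) and −7.89 for s2f_0000130007 (edgeR adjusted p = 0.0318). Whether the stages differ in these 2 members therefore rests on that library.

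In frog embryos edgeR called no identifier with ethinylestradiol at HIGH or MED (0% in each of the 4 comparisons). DESeq2 called 0 members in each. In leopard frogs 25 members were tested, with 0 at an unadjusted p below 0.05 at HIGH and 2 at MED. In clawed frogs 23 were tested, with 0 at HIGH and 1 at MED. The third member, s2f_0000130007, was at 5.33, 14.2, 34.3, 17.9 and 7.49 CPM in leopard frog HIGH libraries, against 9.60, 4.49, 54.6, 31.7 and 7.05 CPM in the controls. In clawed frogs it was at 13.7, 14.5, 18.1, 16.6 and 12.7 CPM in the HIGH libraries, against 34.3, 11.4, 13.5, 12 and 11.1 CPM in the controls. Groups overlapped in both species. The fourth member, s2f_0001766008, was at 0.582 CPM or less in leopard frog HIGH libraries and 0.458 CPM or less in the controls.

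The cormorant table has no labelled control, so it shows levels and not a response. HIGH against MED called 0 of 13293 identifiers (0%) and 0 of 19 members tested by edgeR, with 1 member at an unadjusted p below 0.05 and 0 called by DESeq2. The third member, s2f_0000130007, was at 113, 82.4, 30.7, 139 and 104 CPM in the HIGH libraries, against 70.4, 123, 257, 42.8 and 11.4 CPM in the MED libraries. The fourth, s2f_0001766008, was at 8.80, 7.75, 4.63, 8.85 and 5.76 CPM in the HIGH libraries, against 12.1, 6.85, 5.61, 6.69 and 0.686 CPM in the MED libraries. The levels overlapped for both members.

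Not every member could be looked for in every species. Over all tables of a species, all 40 were listed in minnow and trout, which the rule required, 39 in quail, 38 in clawed frog, 35 in leopard frog and 33 in cormorant. Listed in all 6 species were 31 members (77.5%), against 86.1% of the ranked identifiers. The first member, s2f_0005567005, was not listed in any cormorant table. The ethinylestradiol tables alone listed fewer: 39 members in early-life quail, 27 in adult quail, 31 in clawed frog, 33 in leopard frog and 30 in cormorant. Among these, s2f_0005567005 was listed in early-life quail alone. The second member, s2f_0005567008, was missing from adult quail, clawed frog and cormorant, and s2f_0005556003 from both frogs. A member that is not listed has no result there.

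Trenbolone, the androgen, gave 1 call among the members in 9 comparisons, in which the first 5 members passed the filter in 16 of 45 cases. In adult minnow liver, minnow embryos and early-life quail liver edgeR called no identifier at HIGH or MED (0% in each of the 6 comparisons), and DESeq2 called 0 members in each. Members at an unadjusted p below 0.05 numbered 4 at HIGH and 1 at MED of 29 tested in adult minnows, 1 and 0 of 37 in minnow embryos, and 2 and 2 of 18 in early-life quail. Adult quail HIGH against MED called 0 identifiers (0%), with 0 of 14 members at an unadjusted p below 0.05 and 0 by DESeq2. In minnow embryos s2f_0005567008 was at 0.322 to 1.02 CPM (median 0.705) with trenbolone HIGH, against 0.422 to 0.984 CPM (median 0.636) in the controls.

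Clawed frog embryos were the exception. Trenbolone MED called 261 of 15542 identifiers (1.68%) there and 1 of 24 members tested. That member, s2f_0000130007, was at 52.5, 57.4, 48.8, 44.2 and 46.0 CPM in the MED libraries, against 33.4, 26.3, 30.4, 32.6 and 24.3 CPM in the controls, and rose by 0.80 on the log2 scale (SE 0.20, edgeR adjusted p = 0.0498). The groups did not overlap, but the adjusted p lay just inside the threshold. It was 0.0548 to 0.136 when MED library 1, 2, 3 or 5 or any 1 control library was left out. At HIGH edgeR called 0 identifiers (0%), 5 members had an unadjusted p below 0.05, and DESeq2 called 1, s2f_0000130007. That member was at 33.3, 43.9, 36.2, 75.1 and 68.5 CPM in the HIGH libraries.

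**Figure D4:**
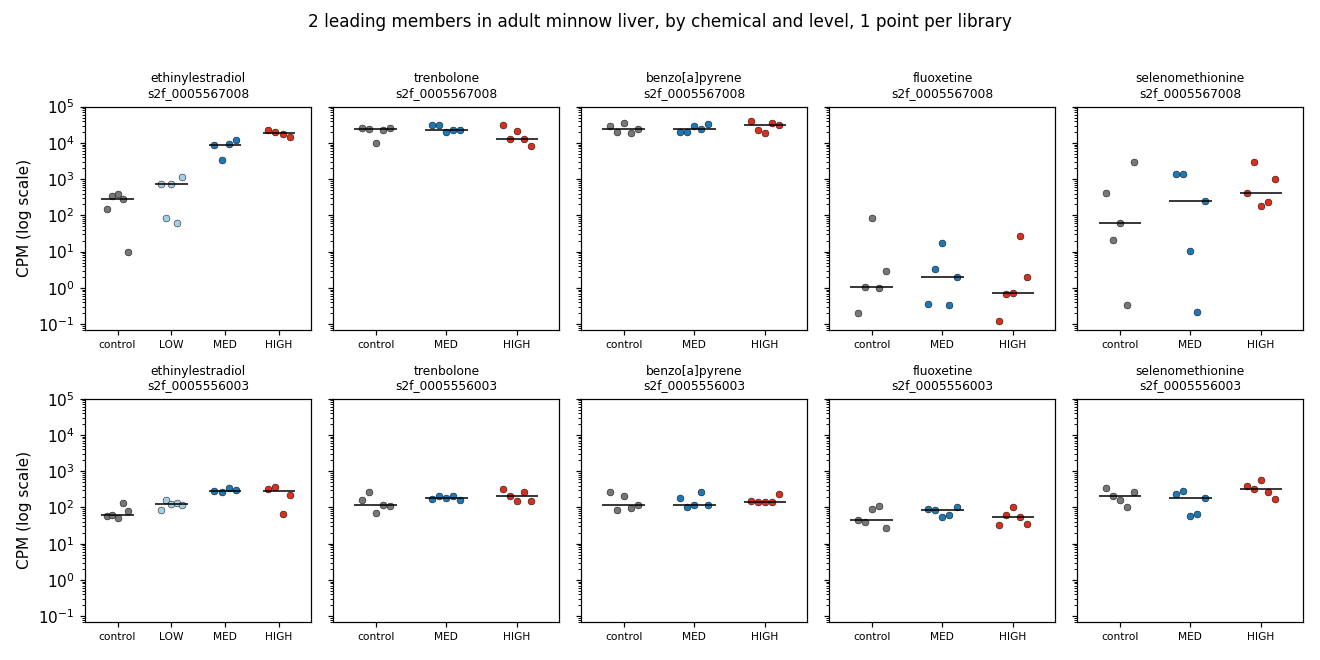
CPM of s2f_0005567008 and s2f_0005556003 in the control and exposed libraries of the 5 adult minnow liver tables, on a log scale, with a point for each library and a line for each group median. Controls of the benzo[a]pyrene and trenbolone tables hold s2f_0005567008 at 10098 CPM or more, and controls of the ethinylestradiol, fluoxetine and selenomethionine tables at 2898 CPM or less, while s2f_0005556003 stays between 26.5 and 349 CPM in all 5 sets of controls.

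What the adult minnow trenbolone table did show was a high level of the leading members in every group. The second member, s2f_0005567008, was at 7975 to 31256 CPM (median 12854) with trenbolone HIGH and at 20438 to 32110 CPM (median 21978) with MED, against 10098 to 26181 CPM (median 23885) in the controls. Those controls stand beside 9.86 to 389 CPM in the controls of the ethinylestradiol table. The benzo[a]pyrene controls held 18157 to 36436 CPM, the selenomethionine controls 0.338 to 2898 CPM and the fluoxetine controls 0.206 to 85.3 CPM. The controls of the trenbolone and benzo[a]pyrene tables were also the highest for s2f_0000130007, at 415 to 932 CPM in trenbolone controls and 754 to 950 CPM in benzo[a]pyrene controls, but at 4.0 to 7.59 CPM in ethinylestradiol controls, 1.58 to 77.5 CPM in selenomethionine controls and 0.0823 to 1.16 CPM in fluoxetine controls. Likewise s2f_0001766008 was at 115 to 368 CPM in trenbolone controls and at 0.0609 to 0.285 CPM in fluoxetine controls. Adult controls held s2f_0005567005 at 79.5 to 279 CPM (trenbolone) and 134 to 245 CPM (benzo[a]pyrene). They held it at 0.0931 to 2.53 CPM (ethinylestradiol) and 0 to 27.1 CPM (selenomethionine), and it was not listed with fluoxetine.

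The fifth member, s2f_0005556003, did not follow that division, with 71.7 to 271 CPM in trenbolone controls, 50.3 to 131 CPM in ethinylestradiol controls and 26.5 to 107 CPM in fluoxetine controls. The tables were made separately, and levels set across them were not tested. The labels give no sex, age or maturity for these fish, and whether any of these moves with the level of the leading members was not tested. The level of s2f_0005567008 with ethinylestradiol HIGH, 14392 to 23001 CPM, lay within the range of the pooled trenbolone and benzo[a]pyrene controls. In trout embryo controls of the other tables the first member, s2f_0005567005, was at most 0.280 CPM (benzo[a]pyrene), 0.126 CPM (fluoxetine) and 0.116 CPM (selenomethionine).

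The other chemicals in fish were set against controls in 12 comparisons, at HIGH or, where trout embryos had numbered levels only, at the highest of these. Minnow embryos with fluoxetine also had numbered levels, which the labels do not order against HIGH and which are not among these comparisons. In the 12, the first 5 members passed the filter on low counts in 28 of 60 cases, and none of those 28 was called. The first member, s2f_0005567005, was tested in 2 of the 12, and in minnow embryos with chlorpyrifos and fluoxetine none of the 5 was tested. Adult minnow liver gave 0 identifiers called (0%) with benzo[a]pyrene, fluoxetine and selenomethionine, and members at an unadjusted p below 0.05 numbered 1, 6 and 0. Minnow embryos gave 0 (0%) with chlorpyrifos and with fluoxetine, with 1 and 1 members at an unadjusted p below 0.05. DESeq2 called 0 members in all 5 of these. Trout embryos with the highest level of fluoxetine gave 0 (0%), with 6 members at an unadjusted p below 0.05, but DESeq2 called s2f_0000734004 and s2f_0000243009. Without fluoxetine library C edgeR called 3 members there, these 2 and s2f_0000291017, and without control library A or C it called 1, s2f_0000243009. Trout embryos with benzo[a]pyrene level 81 gave 46 identifiers (0.274%) and 0 of 37 members, with 8 at an unadjusted p below 0.05 and 0 by DESeq2. Minnow embryos with hexabromocyclododecane, a flame retardant, gave 24 identifiers (0.139%) and 0 of 37 members, with 3 at an unadjusted p below 0.05. Levels of that chemical follow the concentration labels, although the titles of its HIGH libraries bear an M and those of its MED libraries an L. DESeq2, and edgeR without control library A, called 1 member there, s2f_0014795001.

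Among the comparisons with other chemicals, minnow embryos exposed to lead had the most later members called. There 2203 of 17479 identifiers (12.6%) were called and 6 of 37 members were, a share near that background. Upward calls were s2f_0003596005, at 18.7, 19.0, 17.4, 22.1 and 25 CPM with lead HIGH, against 12.6, 12.6, 12.3, 12.2 and 10.3 CPM in the controls (0.75, SE 0.12, edgeR adjusted p = 0.00112), s2f_0000441002 (0.75) and s2f_0000398005 (0.66). The largest downward call was s2f_0001208006, at 6.87, 7.94, 8.12, 6.22 and 7.56 CPM with lead HIGH, against 23.5, 26.4, 23.2, 15.1 and 8.87 CPM in the controls (−1.41, SE 0.27, edgeR adjusted p = 0.00374). The other downward calls rest on single libraries. That of s2f_0000001011 (−0.52) was lost without HIGH library B, C or E or control library A, C, E or F (edgeR adjusted p 0.0520 to 0.0767). That of s2f_0000441010 (−0.39) was lost without HIGH library A, B or C or control library A, C or E (edgeR adjusted p 0.0682 to 0.0844).

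One later member, s2f_0005041002, was called with benzo[a]pyrene in minnow embryos and with selenomethionine in trout embryos. It was called neither with benzo[a]pyrene in trout embryos nor with selenomethionine in minnow embryos. In minnow embryos with benzo[a]pyrene edgeR called 282 identifiers (1.65%) and 2 of 37 members. The first, s2f_0005041002, was at 57.0, 69.6, 64.8, 67.7 and 79.4 CPM at HIGH, against 30.4, 38.7, 35.8, 39.8 and 35.6 CPM in the controls, and rose by 1.05 (SE 0.16, edgeR adjusted p = 0.00117). In trout embryos with selenomethionine, where 152 identifiers (0.878%) were called, the same s2f_0005041002 was at 43.6, 65.1, 57.8 and 56.5 CPM at HIGH, against 30.0, 27.3, 36.0, 34.6 and 35.8 CPM in the controls, and rose by 0.74 (SE 0.10, edgeR adjusted p = 8.77e-05). The groups did not overlap in either table. In adult minnow liver with ethinylestradiol the log2 ratio of this member was −1.43, the lowest adult ratio in the list. The other member called with benzo[a]pyrene, s2f_0004745002 (1.26, edgeR adjusted p = 0.0491), had an adjusted p of 0.0909 to 0.135 without HIGH library C or E or control library A, B, C or E. The other member called in trout, s2f_0000604010 (1.21, edgeR adjusted p = 0.0484), had an adjusted p of 0.0544 to 0.222 without HIGH library B, C or D or control library B, C, D or E.

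Minnow embryos with selenomethionine gave 118 calls (0.672%) and 2 of 37 members. The member s2f_0000105004 was at 142, 77.3, 119 and 324 CPM at HIGH, against 28.0, 32.8, 33.3 and 33.2 CPM in the controls, and rose by 2.31 (SE 0.30, edgeR adjusted p = 0.000555). No HIGH library overlapped a control, and the HIGH libraries spread over a wide range. The member s2f_0000398005 was at 212, 175, 223 and 212 CPM at HIGH, against 172, 130, 156 and 138 CPM in the controls, and rose by 0.40 (SE 0.08, edgeR adjusted p = 0.0263). Its adjusted p was 0.0590 to 0.113 without HIGH library A, C or D or control library B or D.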

How the data were processed

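RNA was sequenced from liver (adult minnow, quail, cormorant) and from embryos (minnow, trout, frogs) as paired-end reads on Illumina instruments, per the labels' protocols. Raw counts, whole numbers listed by identifier, were deposited by the authors for 724 libraries in 49 tables, each for a species, a stage and a chemical. Adult and early-life quail lead tables had the same number of identifiers (18350) and the same lowest and highest totals (9366868 and 29646346). Whether they hold the same libraries was not tested, and no comparison here uses either. The aligner and the genome build were not given in the sources used here. Libraries were grouped by their labels, and 52 columns in 10 tables that matched no sample were not used. In the tables compared and the trout ethinylestradiol table, no 2 libraries of a group agreed within sampling noise (lowest chi-square per degree of freedom 2.77).

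The members and the lists were chosen with earlier results of these data known. CPM is 1e6 times a count over its column's total. Each table was tested alone with edgeR 4.0.16 (quasi-likelihood test, R 4.3.3): filterByExpr with a minimum count of 10 and a minimum total of 15, TMM scaling, all level groups in 1 fit, and the numbered minnow levels in their own, Benjamini-Hochberg adjustment over all identifiers tested and a threshold of 0.05. A member under the filter has no test. Counts of members at an unadjusted p below 0.05, and counts of members called by DESeq2, have no share of all identifiers beside them. Nothing is read from either kind of count. The script was tested on simulated counts. Alternatives were DESeq2 1.42.0, RLE size factors, no filter, only the groups compared, the replicate number as a block, each library left out and, for the list, other pseudocounts, scalings and cutoffs. Named with values were the 6 members of highest rank and every member called, and s2f_0002041008, s2f_0000001141, s2f_0000001011 and s2f_0002969001 were chosen after their values were seen. Same-numbered libraries deviated together (r above 0.1 in every one of 3 or more pairs) in 3 of 32 comparisons, minnow embryos with chlorpyrifos, fluoxetine and lead, and there the block changed no count of members by over 1.5 times. In level 10 against level 1 the 2 pairs had r of 0.444 and 0.498, too few to pair the libraries. Figures were drawn with matplotlib 3.10.9.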

Additional observations from a re-analysis of the deposited data

Results flagged for a closer look

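Samples far from the others of their group were sought in 94 groups of 4 to 10 values, and 12 were found, where chance gives about 1 in 20 groups. Some groups are HIGH or control values that chose the members, and groups share libraries, so nothing is read from that count. By the median correlation with its group, these were adult minnow HIGH library D (0.556), minnow embryo control library A (0.943) and minnow embryo MED library D (0.971). In adult minnow liver with ethinylestradiol, s2f_0005567008 was low in control library E (9.86 CPM), s2f_0000268011 was high in HIGH library D (113.4 CPM) and in LOW library E (0.387 CPM), s2f_0000130007 was low in LOW library C (4.60 CPM), and s2f_0003515002 was low in MED library C (1.74 CPM). In minnow embryos with ethinylestradiol, s2f_0005556003 was low in MED library D (0.316 CPM), the library that was also apart by its correlation. Among controls of other chemicals, s2f_0003596005 was low in library F of the minnow embryo lead table (10.3 CPM), s2f_0000105004 was low in library A of the minnow embryo selenomethionine table (28.0 CPM), and s2f_0000604010 was high in library A of the trout selenomethionine table (2.35 CPM).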

How the results depend on the processing

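The 5 leading members kept a second largest log2 ratio of at least 2 except where MED replaced HIGH (3 did) or 5 CPM was added (4 did). The rest of the list depended on how it was drawn: 19 of the 40 members stayed with TMM-scaled CPM, 20 with a HIGH mean of at least 5 CPM, 11 ranked by the smallest ratio and 11 with MED in place of HIGH. Leaving out 1 library kept 20 to 40 members, with 20 without adult HIGH library D (chosen as an alternative after seeing the data for the adult median, which was then 0.066) and 22 without minnow embryo control library A. With TMM scaling the median of the members was 0.16 at adult MED and 0.34 at trout MED, where it was 0.16 with 0.5 CPM added, 0.10 with 5 CPM added and 0.14 to 0.21 with 1 library left out.

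Over 34 comparisons, 438 of 505 counts of called members lay within 1.5 times of the reported one, and in 23 comparisons all did. The exceptions, beside those of the report, were these. With the replicate block the count was 0 in adult minnow MED against LOW (s2f_0000130007, edgeR adjusted p = 0.323), in minnow embryo level 10 against level 1 (s2f_0005567008, edgeR adjusted p = 0.0781) and with clawed frog trenbolone MED, 1 with benzo[a]pyrene in minnow embryos, 4 with selenomethionine in minnow embryos and 1 with selenomethionine in trout. The block moved no other count among 32 comparisons. In 5 of these 6 the libraries did not meet the check of 3 or more pairs with r above 0.1. Minnow embryos with selenomethionine came close to it, with r of 0.089 to 0.281 over 4 pairs. The other, level 10 against level 1, has 2 pairs (r 0.444 and 0.498). With only the groups compared the count was 0 in adult MED against LOW, 2 with clawed frog trenbolone MED, and 1 with benzo[a]pyrene in minnow embryos and with selenomethionine in minnow and in trout embryos. With RLE size factors it was 0 with clawed frog trenbolone MED and 1 with benzo[a]pyrene in minnow embryos. Without a filter it was 4 with quail MED and 3 with trout fluoxetine. DESeq2 gave 5 in adult MED against LOW, 4 with quail MED, 1 and 2 with clawed frog trenbolone HIGH and MED, 1 with hexabromocyclododecane, 2 with trout fluoxetine and 1 in the quail stage difference. With 1 library left out the count ran from 0 to 1 in adult MED against LOW when a MED or LOW library was left out, was 0 in level 10 against level 1, and ran from 2 to 4 with quail MED, 0 to 1 with clawed frog trenbolone MED, 1 to 3 with benzo[a]pyrene and 1 to 3 with selenomethionine in minnow embryos, 0 to 1 with hexabromocyclododecane, 0 to 3 with trout fluoxetine, 1 to 2 with trout selenomethionine and 0 to 2 in the stage difference. The cause was not tested. Of 304 values of single identifiers, 224 kept their call, 80 did not and 0 reversed. Members near 1 CPM rest on few counts, and groups of 2 to 5 libraries limit what a missed threshold shows.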
